A study of Homo sapiens with 6 samples.

Results

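The olfactory receptor (OR) genes of chromosome 11 were examined for chromatin binding of the isolated tandem Tudor domain (TTD) of UHRF1. Where full-length UHRF1 binds in cells was not measured. The members are the protein-coding genes of this chromosome in GENCODE release 44 whose symbol consists of OR, digits, capital letters and digits, such as OR5A1. This rule gave 172 genes out of the 1317 protein-coding genes of chromosome 11 and the 20033 of all chromosomes, and the other 1145 genes of the chromosome served for comparison. The rule uses no measured value, but it was chosen with earlier results of these data known. Binding was measured by CIDOP, a pull-down in which a GST-tagged reading domain, here residues 126 to 280 of UHRF1, takes the role that an antibody has in ChIP. The mononucleosomes were native and came from untreated HepG2 cells, an established hepatoblastoma line that models liver cells and not the olfactory epithelium in which OR genes are used. The 6 libraries of the series comprise TTD CIDOP, input and H3K9me2 ChIP, with 2 biological replicates per kind. All values given here rest on the single list of 31569 TTD peaks that the authors made for both TTD libraries together. On chromosome 11 the list holds 1230 peaks. It gives positions without scores, read depth or values per replicate, so no test between samples is possible from it, and the 95% Wilson intervals given with shares of genes cover counting error only.

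ORs are G protein-coupled receptors of the nasal epithelium. Each olfactory neuron uses a single receptor gene, and in mouse olfactory neurons the silent OR genes are known to lie in chromatin with H3K9me3. The genes form tandem clusters, their coding region usually lies in a single exon, and they are divided into class I receptors (families OR51, OR52, OR55 and OR56) and class II receptors (all other families). The TTD reads H3 tails with K9me2/3 and binds better where K4me1 is present too, which makes long silent gene clusters a place to look up its peaks. A peak means that the pull-down signal passed the cutoff of the authors. The lack of a listed peak does not show that no TTD was bound, nor that a histone mark was absent.

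The OR genes of chromosome 11 share start regions poor in CpG dinucleotides, the sites of the maintenance methylation that UHRF1 takes part in. The promoters below are 300 bases long, from 250 bases before to 50 bases after the gene start in RefSeq (GRCh38.p14), written 5′ to 3′ on the strand of the gene with CpG in capitals. They are shown for the 2 OR genes with a peak in the gene or near its start, for a member close to a peak, for a member far from any peak and, as a contrast, for SLC22A25, an organic anion transporter gene of the same chromosome whose start lies in a TTD peak.

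OR5B12, chr11:58442187-58442486, minus strand: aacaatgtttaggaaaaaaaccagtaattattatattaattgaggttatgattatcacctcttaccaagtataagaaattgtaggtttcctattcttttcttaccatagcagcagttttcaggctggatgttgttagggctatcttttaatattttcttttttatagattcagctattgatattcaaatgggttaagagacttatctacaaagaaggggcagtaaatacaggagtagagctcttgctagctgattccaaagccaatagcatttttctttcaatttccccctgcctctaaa

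OR9Q1, chr11:58023631-58023930, plus strand: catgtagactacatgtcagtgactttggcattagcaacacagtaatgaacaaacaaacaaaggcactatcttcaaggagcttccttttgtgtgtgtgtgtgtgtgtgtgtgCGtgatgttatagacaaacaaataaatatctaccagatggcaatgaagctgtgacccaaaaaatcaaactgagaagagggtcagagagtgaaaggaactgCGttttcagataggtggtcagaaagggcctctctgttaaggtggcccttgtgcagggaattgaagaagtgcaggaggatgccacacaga

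OR5M8, chr11:56491321-56491620, minus strand: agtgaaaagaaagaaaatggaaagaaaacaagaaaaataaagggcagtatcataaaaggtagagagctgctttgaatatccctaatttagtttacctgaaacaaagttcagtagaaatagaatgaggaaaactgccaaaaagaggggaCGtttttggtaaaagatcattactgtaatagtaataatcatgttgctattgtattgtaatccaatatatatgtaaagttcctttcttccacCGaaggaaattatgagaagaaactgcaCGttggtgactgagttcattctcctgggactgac

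OR4C46, chr11:54603949-54604248, minus strand: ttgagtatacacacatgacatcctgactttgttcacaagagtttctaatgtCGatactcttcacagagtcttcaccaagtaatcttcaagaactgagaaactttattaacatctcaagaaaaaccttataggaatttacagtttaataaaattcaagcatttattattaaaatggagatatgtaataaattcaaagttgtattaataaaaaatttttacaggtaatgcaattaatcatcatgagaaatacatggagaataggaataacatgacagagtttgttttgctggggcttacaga

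SLC22A25, chr11:63243550-63243849, minus strand: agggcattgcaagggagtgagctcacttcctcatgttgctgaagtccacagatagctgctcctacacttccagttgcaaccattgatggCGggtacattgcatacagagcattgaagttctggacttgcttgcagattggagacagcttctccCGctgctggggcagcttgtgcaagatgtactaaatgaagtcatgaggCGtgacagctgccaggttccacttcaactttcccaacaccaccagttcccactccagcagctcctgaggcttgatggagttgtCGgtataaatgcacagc

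These promoters hold 0 CpG in OR5B12, 2 in OR9Q1, 3 in OR5M8 and 1 in OR4C46, and 4 in SLC22A25. RefSeq promoters were matched for 133 of the 172 OR genes and for 803 of the 1145 other genes. The median was 1 CpG in 300 bases for the OR genes, with a range of 0 to 14, against 23 for the other genes, with a range of 0 to 60. No CpG was present in 27.1% of the OR promoters and in 1.99% of the others.

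TTD peaks were listed in the body of few OR genes. A single member, OR9Q1, contained peaks in its annotated span, which is 1 of 172 genes or 0.581% (95% Wilson interval 0.103 to 3.22). Among the other protein-coding genes of chromosome 11, a peak lay in the body of 337 of 1145, or 29.4% (26.9 to 32.1). By bases, the cover was closer, with 2.39% of the summed OR gene bodies in peaks, all of it in OR9Q1, against 3.07% for the other genes. As annotated, the OR genes are much shorter than the others. Their median length was 1082.5 bp against 21466 bp for the other genes, 76 OR genes measured at most 1 kb and 170 measured at most 20 kb. When genes were restricted to 20 kb on both sides, a peak was found in 0 of 170 OR genes, for which the Wilson interval reaches 2.21%, and in 54 of 551 other genes, or 9.80% (7.59 to 12.6). The difference between the groups was thus 28.9 percentage points over all lengths and 9.80 points up to 20 kb. When at least 50% of the body had to lie in peaks it was 0.611 points, with a 95% Newcombe interval of -1.60 to 1.26 that leaves no direction. A gap in length remained below this limit, with a median of 1069 bp for the OR genes and 8152 bp for the others. The 2 members above 20 kb are OR51B5, whose annotated span of 202209 bp contained no peak, and OR9Q1 with 157736 bp.

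OR9Q1 is a class II receptor gene on the plus strand (chr11:58023881-58181616, ENSG00000186509.4), whose canonical transcript joins 3 exons. Its span contained 6 peaks of 800 to 7910 bp, which covered 23960 bp or 15.2% of it, and no base of any other OR gene body lay in a peak. Of its exons, the second one (78 bp, chr11:58055870-58055947) lay wholly in a peak of 3120 bp, while the first exon was 11571 bp away from the nearest peak and the third 3455 bp. Apart from this exon the peaks lay in introns, the first of them 16940 bp downstream of the TSS and the widest, chr11:58162551-58170460, 138670 bp downstream. For 5 of the 6 peaks, the nearest TSS of any protein-coding gene was that of OR6Q1, at 9868 to 42638 bp, and for the widest it was that of OR9Q2, at 18610 bp.

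At the TSS the OR genes likewise carried few peaks. In the 2.5 kb on each side of the TSS a peak was present for 1 of 172 OR genes, or 0.581% (0.103 to 3.22), against 176 of 1145 other genes, or 15.4% (13.4 to 17.6). The mean cover of this window, the percent of its bases in peaks, was 0.202% for the OR genes and 4.17% for the others. These windows have the same length for every gene. Among the other genes, a peak was present for 71 of 551 genes up to 20 kb, or 12.9% (10.3 to 15.9). Of the longer ones it was present for 105 of 594, or 17.7% (14.8 to 20.9), and the intervals overlap. The difference of 14.8 percentage points (95% Newcombe interval 11.5 to 17.0) describes 1 peak list and was not tested, since genes that lie side by side in a cluster are not independent. With the peaks of at least the median width of 2250 bp alone, it was 4.40 points (1.53 to 5.89).

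The gene with a peak in this window is OR5B12, a class II receptor gene on the minus strand (chr11:58438994-58442236, ENSG00000172362.4). The peak, chr11:58443001-58447150, measured 4150 bp and began 765 bp upstream of the TSS. It covered 34.7% of the window and did not reach the gene. For the widest peak in OR9Q1, the longest within an OR gene, the central 300 bases are printed on the plus strand of hg38 with CpG in capitals.

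Peak in OR9Q1, chr11:58166356-58166655: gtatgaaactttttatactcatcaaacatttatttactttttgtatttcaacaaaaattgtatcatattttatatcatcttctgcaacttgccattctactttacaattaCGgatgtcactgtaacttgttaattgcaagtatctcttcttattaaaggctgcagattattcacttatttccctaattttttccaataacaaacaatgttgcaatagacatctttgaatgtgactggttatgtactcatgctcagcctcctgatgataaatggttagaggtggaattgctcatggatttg

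This intronic stretch contained 1 CpG and had a GC content of 31.0%.

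The next members in order of distance had their peaks outside the window. OR52P1, a class I receptor gene, (chr11:5726502-5727464, ENSG00000181109.3), lay 2932 bp from an upstream peak of 2760 bp, which falls within the spans of TRIM5 and TRIM22. The distance was 2990 bp for OR9Q2, 6169 bp for OR5B17, 6311 bp for OR5M8 and 6724 bp for OR8B12. Together with OR5AN1 at 7765 bp and OR6Q1 at 9868 bp, 8 members lay within 10 kb of a peak, each with a peak of its own, and in 5 of these 8 the peak was on the upstream side. At the other end stood OR4A5, OR4A8 and OR4C46, which lie close together near the centromere. They were 1790849, 1814804 and 1893683 bp away from the nearest peak, which was the same peak for all 3, chr11:56497681-56497970, of 290 bp.

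The median distance from the TSS to the nearest peak was 203940 bp for the OR genes (quartiles 85350 and 502434 bp) and 36135 bp for the other genes (quartiles 8748 and 93204 bp). More than 500 kb from any peak lay 44 OR genes, or 25.6%, and 10 other genes, or 0.873%. The gap between the groups was present at every distance examined. Within 10 kb of the TSS, a peak was found for 4.65% (2.38 to 8.91) of the OR genes and 27.2% (24.7 to 29.8) of the others. Within 100 kb these shares were 29.1% (22.8 to 36.3) and 77.1% (74.6 to 79.5), and within 250 kb they were 54.7% (47.2 to 61.9) and 95.3% (93.9 to 96.4).

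**Figure D1:**
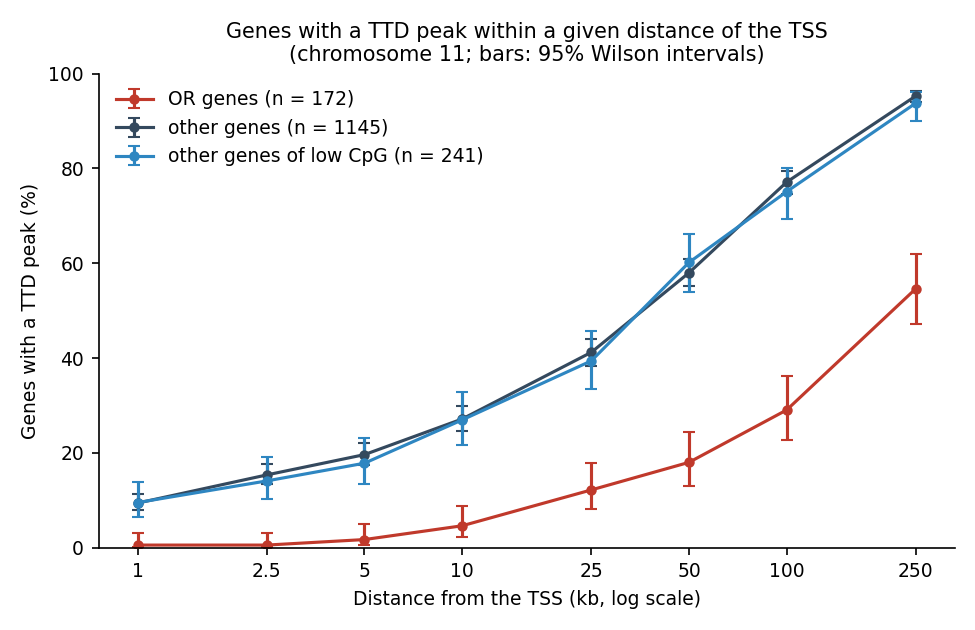
The share of genes with a TTD peak (vertical axis, percent) within a given distance of the TSS (horizontal axis, kb, log scale) is plotted for the 172 OR genes, the 1145 other protein-coding genes of chromosome 11 and the 241 of these with few CpG at the TSS; bars are 95% Wilson intervals. The OR genes stay below the other groups at all 8 distances, from 0.581% at 1 kb to 54.7% at 250 kb.

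Cover around the TSS, averaged over genes in bins of 10 kb, showed the same. In the 2 bins that adjoin the TSS it was 0.383% for the OR genes and 3.72% for the others. Out to 250 kb on both sides the OR genes averaged 1.13% and ranged from 0.158% to 2.32%, whereas the other genes averaged 3.06% and did not fall below 2.39% in any bin. Neighbouring OR genes share much of these surroundings, so the profile of 172 genes describes few separate stretches of the chromosome.

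**Figure D2:**
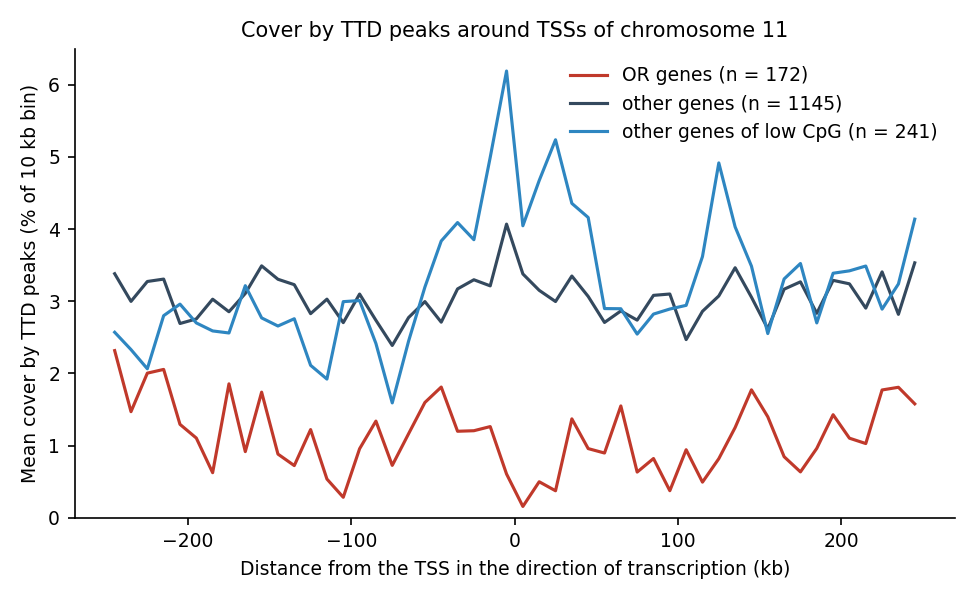
The mean percent of each 10 kb bin in TTD peaks (vertical axis) is plotted against the distance from the TSS in the direction of transcription (horizontal axis, kb) for OR genes, other genes and other genes of low CpG. The line of the OR genes runs between 0.158% and 2.32% and has its lowest bin just downstream of the TSS, while the line of the other genes runs between 2.39% and 4.07%.

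The clusters were formed by chaining members at most 500 kb apart and keeping chains of 5 or more members. This gave 7 clusters with 161 of the 172 genes and a total length of 5.58 Mb, numbered here from the short arm to the long arm. They contained 16 of the 1230 peaks of the chromosome. Peaks covered 0.810% of the clusters, at 2.87 peaks per Mb, and 2.57% of the chromosome outside them, at 9.37 peaks per Mb. The flanks of 500 kb on both sides of the clusters were covered to 3.49% in all. Single flanks ranged from 0% on the right of cluster 3 and the left of cluster 4, which face the centromere, to 9.94% on the left of cluster 5.

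The clusters differed among themselves. Cluster 1 (chr11:4367263-6200186) holds the 55 class I genes of the chromosome, 22 of family OR51, 27 of OR52 and 6 of OR56. It contained 3 peaks over 1833 kb, nearest to OR52P1, OR52B2 and OR52W1 in this order along the chromosome, and was covered to 0.444%. Of the 13326 windows of this length taken along the chromosome in steps of 10 kb, 18.6% were covered as little. The windows used here and below include the clusters themselves and leave out stretches that are mostly N bases. Cluster 2 (chr11:6765626-6921994, 8 genes) and cluster 3 (chr11:48216810-48489722, 7 genes) contained no peak, which in windows of their length was the case for 47.1% and 34.2%, so that in short clusters a lack of peaks is common on this chromosome.

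Cluster 4 (chr11:55343201-56989843) holds 48 class II genes, 25 of them of family OR5 and 12 of OR8. A single peak of 290 bp, 6311 bp from OR5M8, was listed in its 1647 kb, a cover of 0.0176%. Cover this low was found in 8.91% of the windows of this length, some of which overlap the cluster itself. Cluster 6 (chr11:59358895-59713845, 8 genes) contained 1 peak, which lay in OSBP, the gene of an oxysterol-binding protein, and 99742 bp away from the nearest OR TSS, that of OR4D9. Cluster 7 (chr11:123753580-124582942) holds 22 genes, 11 of family OR8 and 7 of OR10, and contained 2 peaks, which covered 0.541%. Of the windows of their length, 39.6% were covered as little as cluster 6 and 29.4% as little as cluster 7.

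Cluster 5 (chr11:58023881-58508105) went against the others. Its 13 genes, 5 of family OR5 and 3 of OR9 among them, lay in a stretch with 9 peaks, more than all other clusters together, and a cover of 6.30%. This was above the 2.49% of the whole chromosome, and 88.1% of the windows of this length were covered as little or less. Both the span of OR9Q1, with 6 of the peaks, and OR5B12 lie in it. The median distance from an OR TSS to the nearest peak was 18062 bp in this cluster, below the median of the other chromosome 11 genes, and between 92541 and 347396 bp in the other 6 clusters. Its flanks were rich in peaks as well, with 9.94% on the left and 7.20% on the right. Without cluster 5, the cover of the clusters was 0.289%.

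**Figure D3:**
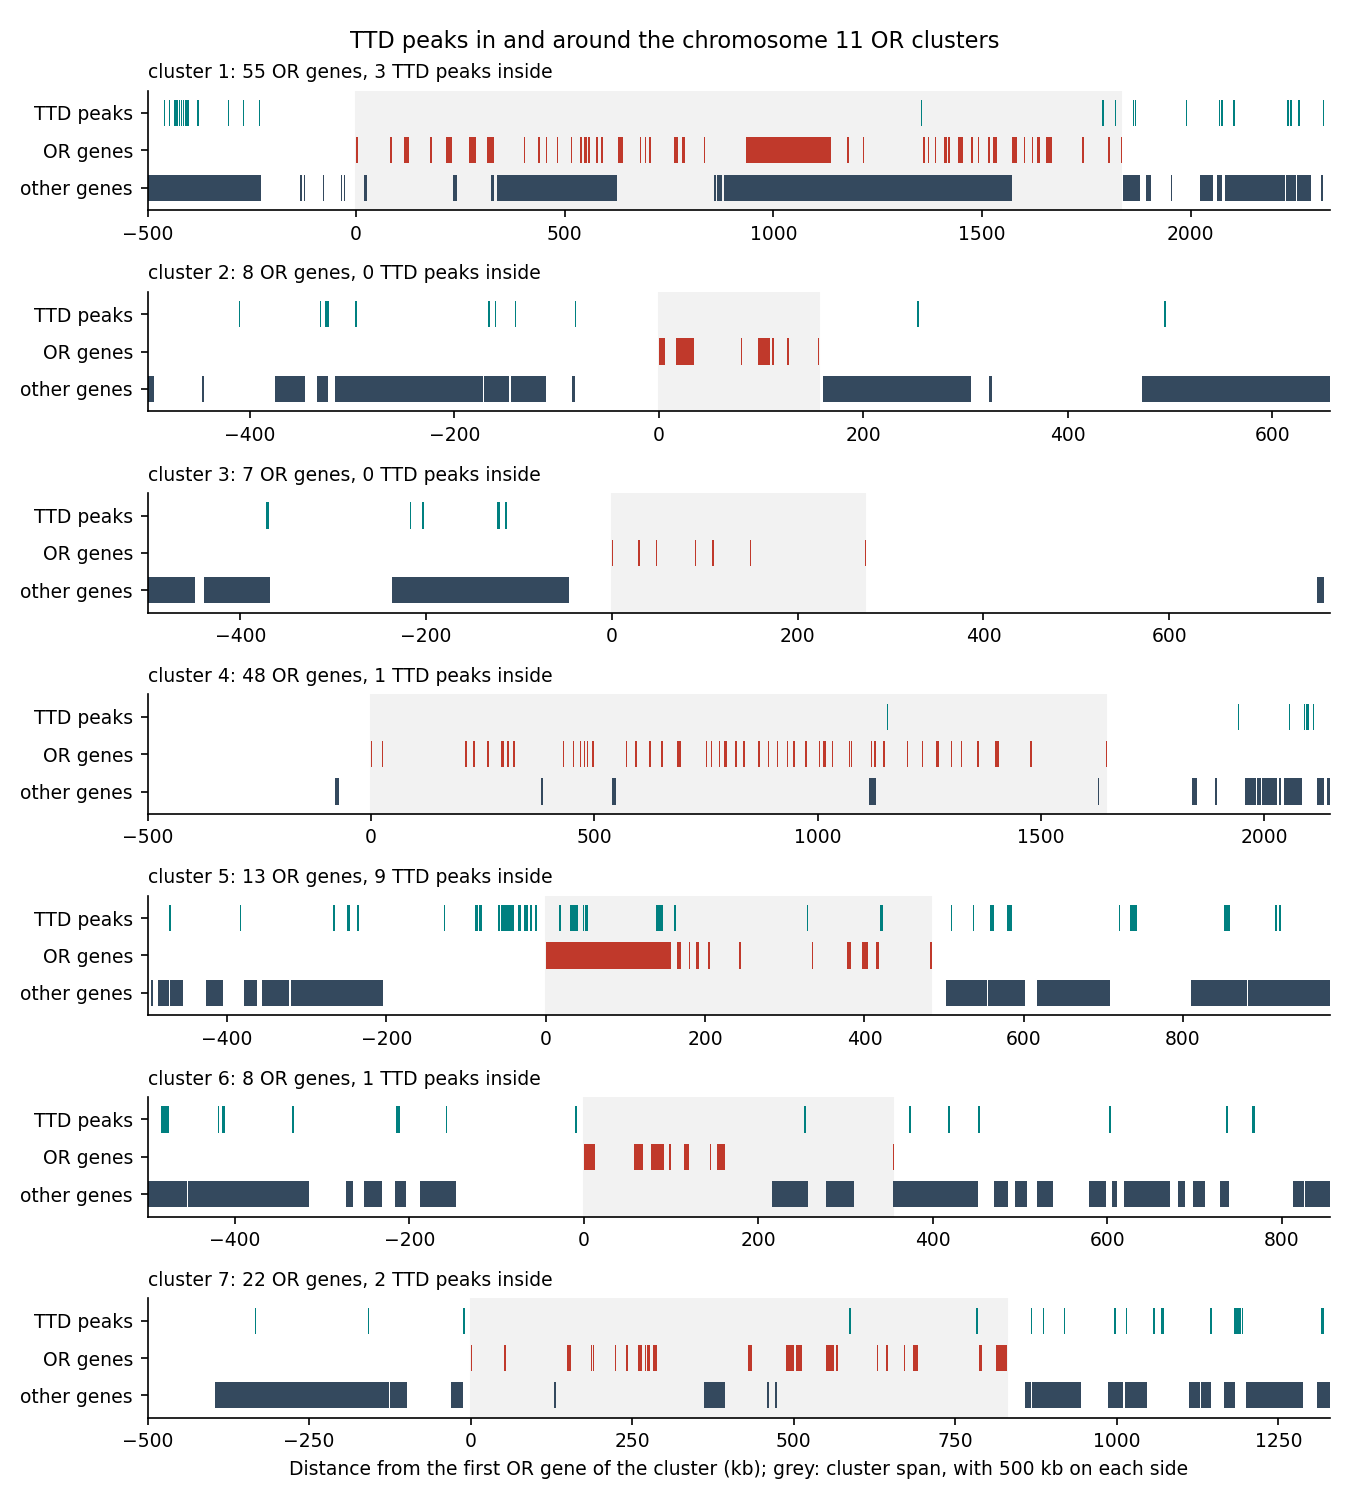
For each of the 7 OR clusters, TTD peaks, OR genes and other protein-coding genes are drawn against the distance from the first OR gene of the cluster (horizontal axis, kb), with 500 kb on each side and the span of the cluster in grey. The grey spans contain 16 peaks, 9 of them in cluster 5, and the flanks beside the centromere, right of cluster 3 and left of cluster 4, contain none.

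**Figure D4:**
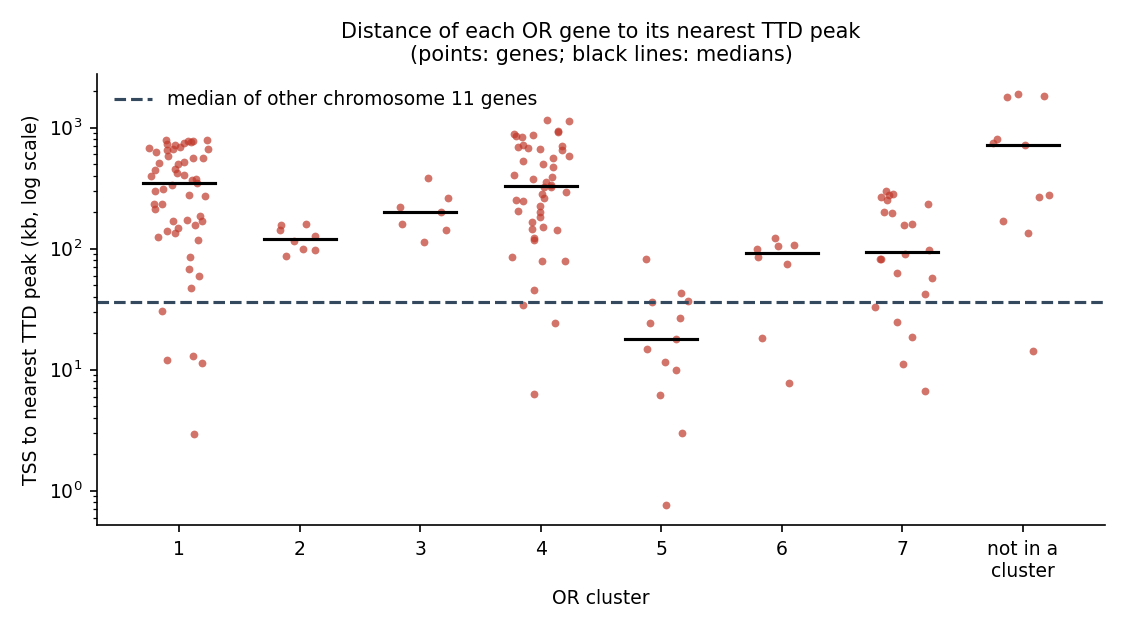
Each point is the distance of an OR gene's TSS to the nearest TTD peak (vertical axis, kb, log scale), arranged by cluster (horizontal axis), with the medians as black lines and the median of the other chromosome 11 genes, 36135 bp, as a dashed line. The median of cluster 5 lies below the dashed line, and the medians of the other 6 clusters and of the 11 genes outside clusters lie above it.

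Seen from the peaks, with distances taken from the middle of each peak, OR genes were seldom the nearest gene. Of the 1230 peaks of chromosome 11, 29 or 2.36% (1.65 to 3.37) had the TSS of an OR gene as the nearest protein-coding TSS, although OR genes make up 13.1% of these TSSs. Within 10 kb of a TSS there were 298 peaks, and 7 of them were nearest to an OR gene. The peak beside OR6Q1 falls outside this limit when measured from its middle. Of the 16 peaks inside clusters, 8 lay outside every protein-coding gene. Their median width of 2515 bp was close to the 2195 bp of all peaks of the chromosome.

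The long stretches of chromosome 11 without a peak held a large part of the family. The longest one, from 49234631 to 56497680, measured 7263 kb, spans the centromere and contains 45 OR genes, from OR4C13 to OR5M8, and 4 other protein-coding genes. Of its bases 4.93% are N in hg38. Another one of 1586 kb, at rank 8, contains 37 OR genes from OR52B4 to OR52B6, and the one at rank 12, of 1129 kb, contains 7. The 16 stretches of at least 1 Mb together held 89 OR genes, or 51.7% of the members, and 42 of the 1145 other genes, or 3.67%, on 24.8% of the chromosome. Of these 16 stretches, 13 contain no OR gene at all, so that long gaps between peaks also occurred away from OR clusters. Blacklisted regions and peaks removed by hand by the authors are not marked in the list, and their part in these stretches was not tested.

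Few genes of either receptor class had a peak. None of the 55 class I genes had a peak in the gene or the TSS window, for which the Wilson interval reaches 6.53%. Their median distance to a peak was 347396 bp. Among the 117 class II genes, OR9Q1 and OR5B12 were the members with a peak, and the median distance was 160091 bp. By bases, the class II gene bodies were covered to 4.24%, all of it in OR9Q1, above the 3.07% of the other genes. Since all class I genes of the chromosome lie in cluster 1, class and position cannot be told apart. In the largest families the median distance was 732833 bp for the 26 genes of OR4, many of which lie near the centromere, 541366 bp for the 22 genes of OR51, 172271 bp for the 27 of OR52, 165716 bp for the 35 of OR5 and 122057 bp for the 23 of OR8. Of the smaller ones with at least 5 members, OR9, OR6 and OR2, with 5 genes each, lay nearer to peaks, at medians of 37021, 63019 and 97759 bp, and the medians of OR10 and OR56 were 243141 and 136439 bp.

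The features that the OR genes share were compared with those of the other genes. In the 1 kb around the TSS the median GC content was 39.5% against 61.6%. The median CpG observed/expected ratio, the number of CpG relative to that given by the C and G content, was 0.153 (quartiles 0.109 and 0.212) against 0.706 (0.320 and 0.817). The canonical transcript had a single exon in 100 of the 172 OR genes, and in 57 of the 1145 others. Among the other genes, those of low CpG content were counted separately. Of the 241 other genes with a ratio no higher than 0.276, the 90th percentile of the OR genes, 34 or 14.1% (10.3 to 19.1) had a peak within 2.5 kb of the TSS, beside 15.4% of all other genes. In the gene body the share was 23.7% (18.7 to 29.4) for these 241 genes and 29.4% for all other genes. Between ratios of 0.1 and 0.2, where 85 OR genes fall, the share was 18.1% (12.2 to 26.1) for 116 other genes and 1.18% (0.208 to 6.37) for the OR genes. Below a ratio of 0.1, a peak was present for 2 of 27 other genes and for 0 of 39 OR genes. Between ratios of 0.1 and 0.2 the intervals of the groups did not overlap, and they overlapped in each of the other 5 bins, which hold 1 to 39 OR genes.

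**Figure D5:**
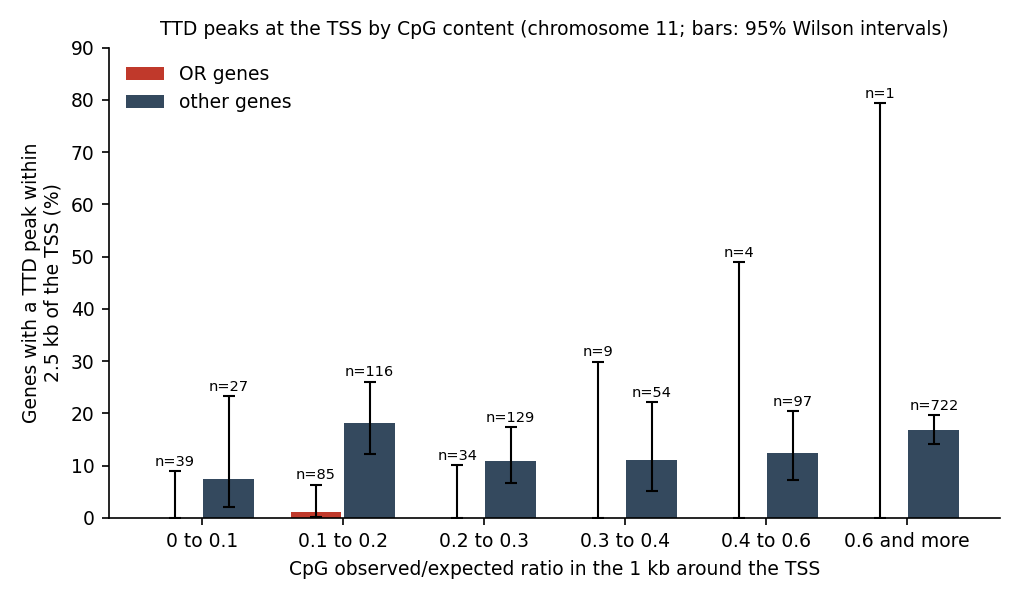
The share of genes with a TTD peak within 2.5 kb of the TSS (vertical axis, percent) is plotted by the CpG observed/expected ratio in the 1 kb around the TSS (horizontal axis) for OR genes and other chromosome 11 genes; error bars are 95% Wilson intervals and n is the number of genes. OR genes are at 0% in all bins but 1, where 1 of 85 has a peak, while the other genes stay between 7.41% and 18.1%.

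Whether reads of these related genes can be placed was measured with windows of 150 bp, about the size of a mononucleosome fragment, taken every 50 bp from the exons and TSS windows and mapped back to hg38. In 151 of the 172 OR genes every exon window returned to its own place with a mapping quality of at least 10, and the lowest share in any OR gene was 70.6%. In the TSS windows the lowest share was 91.8% and the median was 100%, as it was for the other genes. These values describe windows of the reference and not the reads, which were mapped with another tool and were not analysed here. Introns and the sequence between genes were measured only where a TSS window reaches them. The shares therefore do not describe whole clusters or the long stretches without a peak.

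The other protein-coding genes inside the clusters were looked up in the same way. They number 30, of which 6 carry OR symbols with a final P and 24 are not named as OR. Among the 24 are 5 beta-globin genes, members of the TRIM family and the matrix metalloproteinase gene MMP26. Several of the 24 overlap one another, and an entry without a symbol, chr11:56459221-56473352, overlaps OR5M3 and ends at the same base. None of the 24 had a peak within 2.5 kb of the TSS, for which the Wilson interval reaches 13.8%, and none of the 6. A peak lay in the body of 4 of the 24, or 16.7% (6.68 to 35.9), namely TRIM5, TRIM22, OSBP and STX3, whose spans run from 41377 to 275425 bp. These 4 genes rest on 2 peaks inside clusters, since TRIM5 and TRIM22 overlap and share 1 peak, and STX3 reaches over the end of cluster 6 and has its 2 peaks outside. The median distance of the 24 genes to a peak was 207483 bp, close to that of the OR genes. At the TSS, so few genes give no direction for a difference between the OR genes and their neighbours. The median length of the 24 genes was 20743 bp, so their share with a peak in the body is not set against that of the short OR genes. The 5 beta-globin genes were between 450866 and 493740 bp away from the nearest peak.

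OR pseudogenes of chromosome 11, named with a final P, were counted too. Of 192 pseudogenes, 7 or 3.65% had a peak within 2.5 kb of the TSS, among them OR5BL1P, OR9L1P and OR5B10P in cluster 5. A peak reached the body of 2, OR9L1P with a cover of 4.22% and OR8B6P with 87.7%. The interval for the TSS share (1.78 to 7.33) overlaps that of the OR genes. The 228 OR genes of other chromosomes had a peak in the TSS window in 11 cases, or 4.82% (2.72 to 8.43), and in the body in 8, or 3.51% (1.79 to 6.77).

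Other genes of olfactory signalling, receptor transport and OR gene regulation were counted from a list of 22 genes on all chromosomes. A peak lay in the body of 8, or 36.4% (19.7 to 57.0), close to the 34.2% of all protein-coding genes. Within 2.5 kb of the TSS a peak was present for 1 of the 22, or 4.55% (0.807 to 21.8). That interval includes the share among 20007 protein-coding gene symbols, each counted once, which was 17.0%. The gene is KDM1A, a histone demethylase of H3K4, whose window was covered to 9.36%. Of the signalling genes, GNAL, the G protein of olfactory transduction, contained 3 peaks that covered 3.01% of it, ADCY3, its adenylyl cyclase, contained 2 that covered 3.98%, and the channel gene CNGB1 contained 2 that covered 5.02%. None was listed in OMP, the marker protein of mature olfactory neurons, 40890 bp from a peak, or in the channel gene CNGA4, 5199 bp from one. As a reference on the same chromosome, 18 genes typical of liver were counted, from a list chosen with earlier results of these data known. A peak lay within 2.5 kb of the TSS for 10 of them, or 55.6% (33.7 to 75.4), and in the body of 12, with SLC22A25 covered to 100% of its TSS window, SAA4, a serum amyloid A gene, to 87.2% and HPX, the gene of hemopexin, to 85.1%. APOA1, APOA4, APOA5 and APOC3, all among the 10 with a peak at the TSS, lie close together. The count of 10 therefore rests on fewer separate loci. HPX lies between cluster 1 and cluster 2, whose covers were 0.444% and 0%.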

How the data were processed

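Per the labels and the study's methods, the authors clipped adapters (Trimmomatic 0.38), aligned to hg38 (HISAT2 2.2.1), computed RPKM in 10 bp bins outside blacklisted regions (deepTools 3.3.2), averaged the replicates and called broad TTD peaks (MACS2 2.1.1). Which signal entered the caller is not given in the sources used here beyond the pooling of replicates. Blacklisted regions were taken out of the peaks, which were then curated manually. The deposited list gives the start, end and width of each peak in bp. No peak of chromosome 11 exceeds the hg38 sequence, and 0 positions leave the 10 bp grid. Depth per library is not given by the list, and the signal tracks were not analysed here.

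From these positions, cover was computed for gene spans, TSS windows and clusters of GENCODE release 44 by interval arithmetic (Python 3.11.15, numpy 2.4.6, pandas 2.3.3, scipy 1.17.1, pysam 0.24.0, samtools 1.23.1, matplotlib 3.10.9). Any overlap counted. The TSS is the annotated start of the Ensembl canonical transcript, which in OR5M8 and OR4C46 is the start of the coding region. The 6 protein-coding OR symbols that end in P were counted among the other genes. Windows of 150 bp were mapped with minimap2 2.31. In 6020 simulated look-ups the arithmetic gave 0 mismatches. No test was run, because the replicates were pooled before peak calling. Named genes are the members with a peak in the gene or TSS window, the 5 nearest and 3 farthest of the rest, the lists of olfactory, globin and liver genes, and other genes with a peak inside a cluster. OR5AN1, OR6Q1, STX3, the pseudogenes and further genes named for their place were added after their values were seen. The members and lists were chosen with earlier results of these data known. Other peak lists, windows, overlaps and comparison genes were tried as alternatives.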

Additional observations from a re-analysis of the deposited data

How the results depend on the processing

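No paired analysis was possible because the authors pooled the replicates before the peaks were called, so no replicate could be left out either. The share of OR genes with a peak in the gene body (0.581%) was 0% when 50% of the body had to be covered or genes were limited to 20 kb, and 3.51% for OR genes of other chromosomes. The share with a peak at the TSS was 4.65% at 10 kb on each side and 4.82% for other chromosomes. The cover of the clusters (0.810%) was 0.665% with the wider peaks alone (2250 bp, the median, or more), 0.927% and 1.51% with gaps of 100 kb and 1 Mb, 1.26% with 50 kb added on each side and 0.289% without cluster 5.

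The difference from other genes in the gene body (28.9 points) was 17.2 with the wider peaks, 8.68 and 0.611 (-1.60 to 1.26, no direction) when 10% and 50% of the body had to be covered, 10.5 for exons, 36.7 with 5 kb added, 23.1 against genes of low CpG, 34.0 against the genes of all chromosomes but Y and 9.80 up to 20 kb. At the TSS (14.8 points) it was 4.40 with the wider peaks, 8.85, 17.9 and 22.5 at 1, 5 and 10 kb, and turned to -0.581 against the 30 other genes inside the clusters (95% Newcombe interval -3.22 to 10.8), a count of 0 of 30 that includes 6 OR symbols with a final P and gives no direction. The limits to 20 kb, without cluster 5 and to genes inside clusters were chosen after seeing the data. Of the other 22 of 45 alternatives, the cluster cover with peaks less than 1 kb apart joined, which has no counting interval, was 0.822%, and the rest stayed within the counting error of the values given. The cause of these shifts was not tested.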
